A study of Homo sapiens with 12 samples.

Results

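SLC16A6 and the 4 protein-coding genes beside it, ARSG, WIPI1, PRKAR1A and FAM20A, lie in 342.2 kb of chromosome 17 (GRCh38, chr17:68259182-68601389). They were followed in cells labelled as the human liver cancer lines Hep3B and HepG2, in which CD146 was lowered or raised. CD146 is the cell adhesion molecule encoded by MCAM. The members were a fixed list of 5 neighbouring genes, found by symbol among the 61806 gene IDs of the count table, and all 5 were found. They are the 5 protein-coding genes among the 9 genes annotated in the interval. The members were selected on results of these data: the HepG2 log2 fold changes are taken as the values that chose them, and their values in HepG2 are given as a description without a test. Whether the knockdown values were also in view when the list was made is not recorded, so the adjusted p-values given after knockdown are the genes' own values in the fit over all genes and no independent evidence for the choice.

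Poly(A)-selected RNA was sequenced in 12 libraries, in 4 groups of 3. Libraries labelled Hep3B carried a Tet-on shRNA against CD146 or a Tet-on control shRNA. HepG2 libraries carried a CD146 vector (called CD146 overexpression here) or the pLVX vector without it. Hep3B and HepG2 are established lines from human liver tumours. Line and method of perturbation cannot be told apart in this design. The labels give no inducer, no time and no promoter for the CD146 vector, they do not say whether libraries came from separate cultures, and the numbers 1 to 3 in the shRNA titles may mark libraries or hairpins. The p-values therefore rest on differences among these libraries alone, and those may be technical.

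Totals were 14.1M to 18.1M counts (M, 1e6) for CD146 shRNA libraries, 13.8M to 16.7M for control shRNA libraries, 13.3M to 16.9M for CD146 overexpression and 12.8M to 16.7M for pLVX. MCAM was at 24.4 ± 2.44 CPM (counts per 1e6, scaled within each line; mean ± SD, n = 3) with the CD146 shRNA against 115 ± 3.53 CPM with the control shRNA, and at 1930 ± 30.9 CPM with CD146 overexpression against 23.4 ± 0.407 CPM with pLVX. Of 12 hepatocyte markers, 0 had a group mean of 10 CPM or more in the libraries labelled Hep3B, where 3 reached 10 CPM in at least 1 CD146 shRNA library and 0 in a control shRNA library, and 12 had such a mean in both HepG2 groups. Their summed level was 9.49 to 76.9 CPM with the CD146 shRNA, 7.63 to 10.4 CPM with the control shRNA, 56200 to 57000 CPM with CD146 overexpression and 61600 to 63700 CPM with pLVX. The transcripts that define the labelled cell type were thus near absent from the libraries labelled Hep3B, and ALB, the gene of serum albumin, had 1, 1 and 298 counts with the CD146 shRNA, so that replicate 3 stands apart. Without that library the log2 differences given below after knockdown were 2.21 for SLC16A6, 0.84 for ARSG, 0.92 for WIPI1 and 0.13 for PRKAR1A.

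The 5 proteins belong to different pathways. SLC16A6 is a member of the monocarboxylate transporter family, whose best studied members carry lactate, pyruvate and ketone bodies across the plasma membrane. In zebrafish, Slc16a6a exports the ketone body beta-hydroxybutyrate from hepatocytes during fasting. ARSG is a lysosomal sulfatase that acts on heparan sulfate. WIPI1 is a WD-repeat protein that binds phosphatidylinositol 3-phosphate at forming autophagosomes. PRKAR1A is a regulatory subunit that holds the catalytic subunits of protein kinase A inactive until cAMP binds. FAM20A is a pseudokinase of the secretory pathway that activates the kinase FAM20C.

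The genes share more than their neighbourhood. In GENCODE version 29, SLC16A6 (ENSG00000108932, minus strand, chr17:68267026-68291267) lies wholly inside the body of ARSG (ENSG00000141337, plus strand, chr17:68259182-68422731). The 2 genes have 144 exon bases in common, which is 3.55% of the exon bases of SLC16A6 and 2.19% of those of ARSG. Of the 9 annotated ARSG transcripts, 3 start 224 to 251 bases from the outermost SLC16A6 start. They lie on the other strand, so that these starts stand head to head. Only ARSG-201 and ARSG-204 start on the far side of SLC16A6 and reach into its body.

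WIPI1 (ENSG00000070540, minus strand, chr17:68420948-68457513) meets ARSG tail to tail. Their 3′ ends share 1784 bases of gene body and 828 exon bases, 24.3% of the exon bases of WIPI1 and 12.6% of those of ARSG. MIR635, a microRNA gene on the strand of WIPI1, lies in an intron of WIPI1. Between the outermost SLC16A6 start and the WIPI1 end lie 129680 bases, and between the WIPI1 start and the PRKAR1A start 54266 bases.

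PRKAR1A (ENSG00000108946, plus strand, chr17:68511780-68551319) and FAM20A (ENSG00000108950, minus strand, chr17:68535113-68601389) overlap by 16207 bases of gene body at their 3′ ends but share 0 exon bases. The overlap comes from 1 of 21 PRKAR1A transcripts, and the others end at least 1682 bases before FAM20A. In all, 28.1% of the exon bases of WIPI1 were shared with an exon of another annotated gene, 19.6% of those of ARSG, 8.0% of those of PRKAR1A, 3.55% of those of SLC16A6 and 0.0% of those of FAM20A. The strand setting of the counting was not given in the sources used here, so reads from shared bases cannot be assigned to 1 gene.

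**Figure D1:**
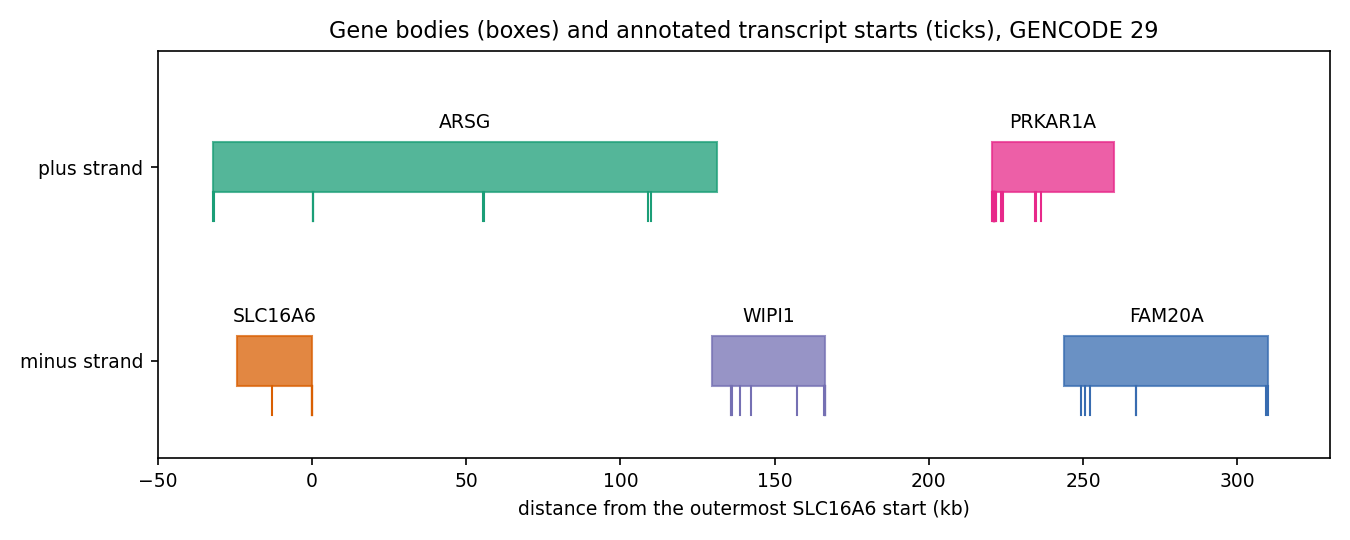
Gene bodies (boxes) of the 5 genes on the plus and minus strands, with annotated transcript starts as ticks, against the distance in kb from the outermost SLC16A6 start (GENCODE version 29). SLC16A6 lies inside ARSG, with 3 of the 9 ARSG starts beside its own, and WIPI1 with ARSG and FAM20A with PRKAR1A overlap at their 3′ ends.

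The authors' annotation was not given in the sources used here, but it can be compared through the gene length that their FPKM imply (fragments per kilobase of transcript and 1e6 fragments). The implied length was 6583 bases for ARSG (6587 exon bases in GENCODE version 29), 4056 bases for SLC16A6 (4061), 3405 bases for WIPI1 (3402) and 6183 bases for FAM20A (6203). For PRKAR1A it was 12585 bases against 6821, a ratio of 1.85. The authors' PRKAR1A model thus holds bases that version 29 does not, and the overlaps given for PRKAR1A may differ in it. The RefSeq table (GRCh38.p14) starts PRKAR1A 98.2 kb further upstream than GENCODE version 29, at chr17:68413623-68551316, a span that contains WIPI1 and the 3′ end of ARSG.

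The starts of the genes are shown by the RefSeq promoter windows (GRCh38.p14, 250 bases before to 50 after a start), which were present for 3 of the 5 members in 7 windows. SLC16A6 and FAM20A had no entry. The ARSG window is that of its outermost start and not of the starts beside SLC16A6. Short motifs were searched on both strands, and capitals mark each match: TGACGTCA, the cAMP response element; TGACG, its core, which each TGACGTCA also contains; CACGTG, an E-box; CAAAGTCCA, a nuclear receptor site of the HNF4 type; and TATAAA, the TATA box. The windows of ARSG and WIPI1 hold none of them, and 1 of the 5 PRKAR1A windows is printed because it holds the whole cAMP response element, 49 bases before the start.
PRKAR1A, plus strand, chr17:68512180-68512479: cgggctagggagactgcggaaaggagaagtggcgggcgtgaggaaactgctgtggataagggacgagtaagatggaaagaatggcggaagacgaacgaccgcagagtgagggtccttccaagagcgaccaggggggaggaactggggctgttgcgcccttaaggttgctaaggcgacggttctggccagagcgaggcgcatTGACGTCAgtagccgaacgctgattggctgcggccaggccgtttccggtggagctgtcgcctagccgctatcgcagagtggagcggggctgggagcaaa
ARSG, plus strand, chr17:68258920-68259219: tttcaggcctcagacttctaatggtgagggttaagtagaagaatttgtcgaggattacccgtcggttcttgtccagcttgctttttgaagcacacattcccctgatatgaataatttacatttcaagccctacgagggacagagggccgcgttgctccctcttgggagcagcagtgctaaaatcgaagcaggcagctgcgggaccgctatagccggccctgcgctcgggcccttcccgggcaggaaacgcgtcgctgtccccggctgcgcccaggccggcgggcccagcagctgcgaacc
WIPI1, minus strand, chr17:68457447-68457746: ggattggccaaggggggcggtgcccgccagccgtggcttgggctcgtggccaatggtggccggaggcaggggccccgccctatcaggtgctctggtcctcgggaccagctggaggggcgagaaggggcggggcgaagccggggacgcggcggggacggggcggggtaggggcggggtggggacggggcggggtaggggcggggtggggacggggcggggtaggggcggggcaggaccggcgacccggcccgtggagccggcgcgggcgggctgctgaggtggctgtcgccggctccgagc

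Of 35116 promoter windows in the table, 1.85% hold TGACGTCA, 24.6% TGACG, 7.26% CACGTG, 0.384% CAAAGTCCA and 11.5% TATAAA. The window of WIPI1 was 79.7% G and C, that of PRKAR1A 61.7% and that of ARSG 58.3%, with a median of 58.7% over the table. A second PRKAR1A window, chr17:68512129-68512428, contains the same TGACGTCA beginning 2 bases from its own start. Another, chr17:68511750-68512049, holds CACGTG 45 bases before its start. A match of this kind is a description of the letters and was not tied to a factor.

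With CD146 lowered in the libraries labelled Hep3B, the transporter gene SLC16A6 was 4.7-fold higher, ARSG was 1.76-fold and WIPI1 1.88-fold higher, PRKAR1A was slightly higher, and FAM20A had too few counts for a test. SLC16A6 was at 649, 669 and 690 CPM in the 3 CD146 shRNA libraries, against 138, 137 and 153 CPM in the 3 control shRNA libraries. Every CD146 shRNA library stood far above every control. The difference was 2.23 on the log2 scale (SE 0.05; edgeR quasi-likelihood test with Benjamini-Hochberg adjustment over 16968 genes, adjusted p = 6.9e-33).

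ARSG, the sulfatase gene around it, was at 25.6, 27.5 and 25.1 CPM with the CD146 shRNA, against 14.5, 15.1 and 15.0 CPM with the control shRNA. The groups did not overlap, and ARSG rose by 0.81 on the log2 scale (SE 0.08; edgeR adjusted p = 2.3e-11). In counts, ARSG averaged 424.7 with the CD146 shRNA and 235.7 with the control shRNA, where SLC16A6 averaged 10847 and 2266. Of the ARSG exon bases, 675 lie inside the SLC16A6 body, and 144 of these lie in SLC16A6 exons. With SLC16A6 at so many counts there, the part of this overlap in the ARSG change was not tested.

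WIPI1, the autophagy gene, was at 17.8, 20.2 and 18.7 CPM with the CD146 shRNA, against 11.1, 10.0 and 9.03 CPM with the control shRNA. The groups were again separate, and WIPI1 rose by 0.91 on the log2 scale (SE 0.10; edgeR adjusted p = 2.0e-10). WIPI1 shares more exon bases with ARSG than any other pair of members shares. How this overlap bears on the 2 rises was not tested. MIR635 in its intron had 22, 22 and 15 counts with the CD146 shRNA and 10, 9 and 9 with the control shRNA; it passed the low-count filter through the CD146 shRNA group, so no test is given. Poly(A) libraries of this kind do not measure the mature microRNA.

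PRKAR1A, the protein kinase A subunit gene, was at 196, 172 and 188 CPM with the CD146 shRNA, against 167, 164 and 172 CPM with the control shRNA. Library 2 of the CD146 shRNA lay only 0.104 CPM above the highest control, and in FPKM the groups overlapped. The change of 0.14 on the log2 scale (SE 0.05) passed the threshold (edgeR adjusted p = 0.00695), but not in limma on FPKM (0.11, adjusted p = 0.224), nor without CD146 shRNA replicate 1 (0.11, adjusted p = 0.0513) or without control shRNA replicate 2 (0.12, adjusted p = 0.0578).

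FAM20A, the pseudokinase gene, had 7, 7 and 7 counts with the CD146 shRNA and 6, 6 and 11 with the control shRNA, or 0.436 ± 0.0621 and 0.48 ± 0.155 CPM. It did not pass the filter on low counts, and the groups overlapped, so a change was not detectable at this depth. PRKAR1A, whose body overlaps it, averaged 3011.7 counts with the CD146 shRNA and 2663.7 with the control shRNA in the same libraries.

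Of the 5 members, 4 were tested after knockdown and 4 were called higher, where 26.8% of the genes tested were called higher and 28.5% lower. In 4 members all CD146 shRNA libraries were above all controls, PRKAR1A by the margin given above, as in 29.1% of the genes tested. At such shares, a rise is common among all genes in this comparison. Some markers of other cell types moved in the same libraries. Of 8 markers of endothelial cells, leukocytes and fibroblasts, 5 were tested and 4 rose. CDH5, the endothelial cadherin, was at 20.1 ± 0.792 CPM with the CD146 shRNA against 0.754 ± 0.124 CPM with the control shRNA (4.72, SE 0.16; edgeR adjusted p = 1.5e-25). COL1A1, a fibrillar collagen chain, also rose (0.68, SE 0.06; edgeR adjusted p = 2.4e-13). COL1A2, also among the 4, was at 0.177 to 0.216 CPM in the control shRNA libraries and at 1.37 to 8.9 CPM with the CD146 shRNA. It passed the low-count filter through the CD146 shRNA group alone, so its call is no support. PECAM1, another endothelial marker, did not pass (0.18, SE 0.27; edgeR adjusted p = 0.588). PTPRC, of leukocytes, and DCN and LUM, of fibroblasts, had group means of 0.207 CPM or less and were not tested. In limma on FPKM, 3 of the markers were called higher. The summed level of the 8 markers was 107 to 129 CPM with the CD146 shRNA and 57.9 to 64.1 CPM with the control shRNA. Their part in the rises of the members was not tested.

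With CD146 raised in HepG2, all 5 members were lower in every overexpression library than in every pLVX library. This comparison drew attention to the locus, so the count supports nothing by itself. Over all genes 17.1% were lower in this way, 10.3% were called lower and 9.55% higher. The split of calls depended on the scaling: 48.1% of the calls were upward here, but 79.5% with library totals and 73.7% in limma on FPKM. In bulk RNA, a lower level per cell and fewer cells that carry the transcript cannot be told apart.

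FAM20A differed most in HepG2. It was at 3.15, 3.32 and 3.06 CPM with CD146 overexpression, against 19.0, 18.2 and 19.8 CPM with pLVX. That is 16.7% of the pLVX level, or −2.58 on the log2 scale, and the overexpression libraries lay close together far below the pLVX libraries. The noncoding gene LINC01482, which lies inside the FAM20A body on the other strand, had 4, 0 and 2 counts with CD146 overexpression and 16, 19 and 23 with pLVX. It passed the low-count filter through the pLVX group alone, so no test is given, and its fitted log2 difference of −3.32 depends on these few counts. It shares 0 exon bases with FAM20A in GENCODE version 29.

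SLC16A6 was at 6.76, 6.71 and 6.13 CPM with CD146 overexpression, against 15.0, 14.8 and 16.3 CPM with pLVX, a difference of −1.23 on the log2 scale. PRKAR1A was at 217, 207 and 219 CPM with CD146 overexpression, against 351, 358 and 380 CPM with pLVX, a difference of −0.76. The gap between the groups was 8.04 CPM for SLC16A6 and 132 CPM for PRKAR1A. These are values of the comparison taken as having chosen the members, so the gaps are a description only.

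ARSG was at 9.46, 10.8 and 8.84 CPM with CD146 overexpression, against 13.8, 16.4 and 14.9 CPM with pLVX (−0.65 on the log2 scale). WIPI1 was at 15.8, 18.0 and 14.7 CPM with CD146 overexpression, against 25.2, 20.4 and 23.4 CPM with pLVX (−0.51 on the log2 scale). WIPI1 had the narrowest separation of the 5, with 2.43 CPM between the highest overexpression library and the lowest pLVX library. The counts of ARSG and SLC16A6 were of like size in HepG2. ARSG averaged 148.7 counts with CD146 overexpression and 214.3 with pLVX, and SLC16A6 averaged 100.7 and 216.7. WIPI1, which shares the 828 exon bases with ARSG, averaged 248 counts with CD146 overexpression and 322.3 with pLVX.

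The 5 genes did not move by the same amounts or in the same order. After knockdown the largest log2 difference was that of SLC16A6 and the smallest tested one that of PRKAR1A, while in HepG2 the largest was that of FAM20A and the smallest that of WIPI1. In 4 members, all but FAM20A, libraries were above the controls after knockdown and below the pLVX libraries after overexpression, as in 4.67% of the 13559 genes tested in both lines. PRKAR1A is among the 4 only by its margin of 0.104 CPM. The members were chosen with results of these data known, and the difference between the lines was not tested.

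**Figure D2:**
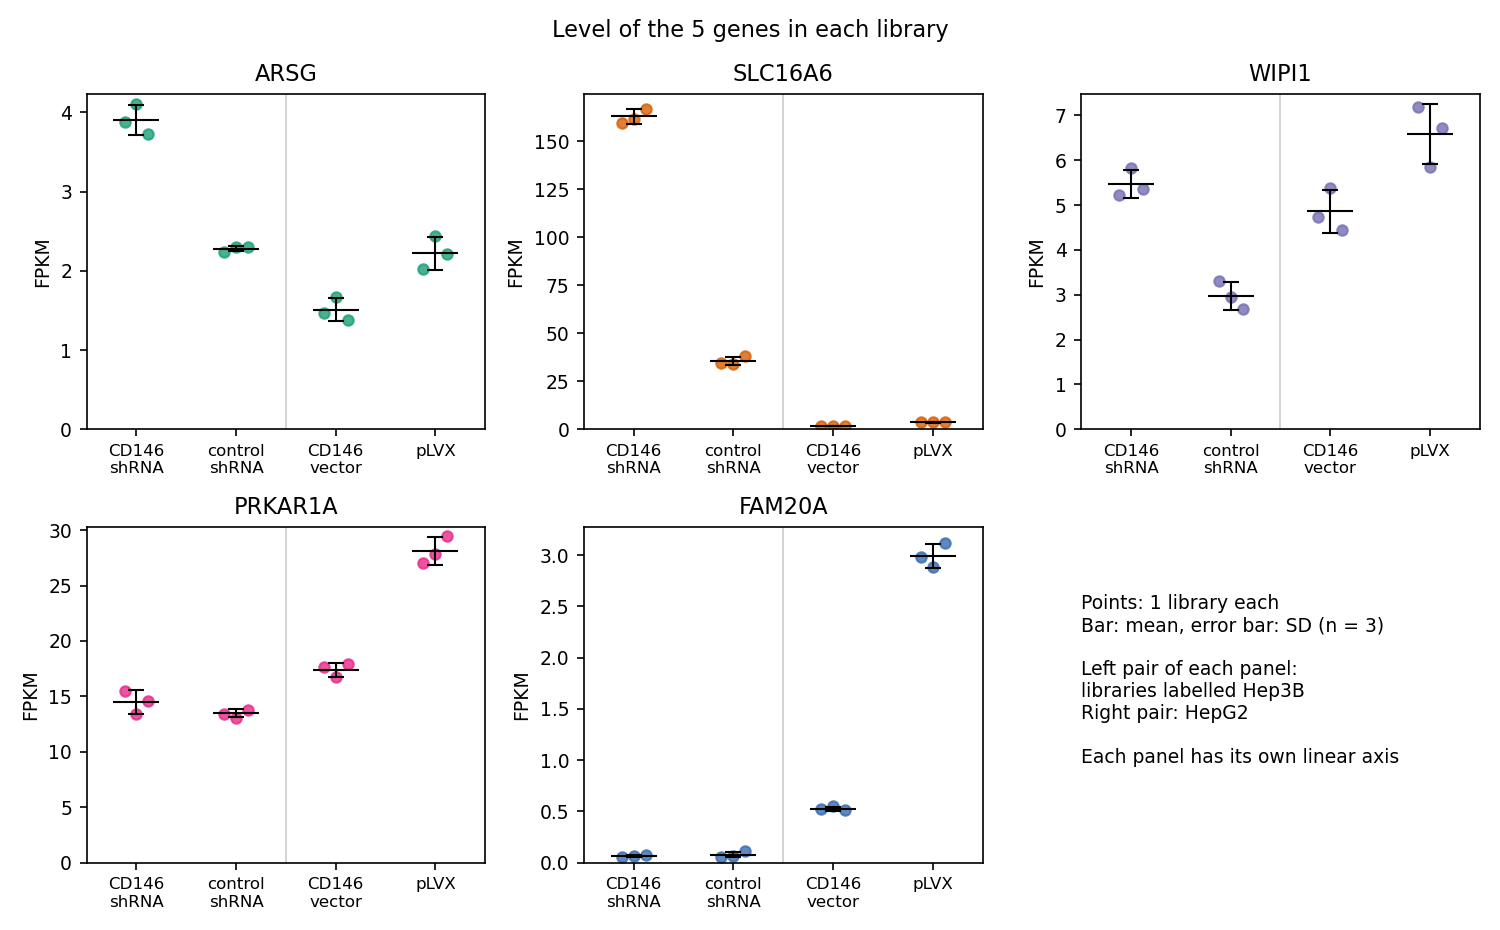
FPKM of each gene in each library, by group, with CD146 shRNA and control shRNA (libraries labelled Hep3B) left and CD146 vector and pLVX (HepG2) right. Points are libraries, bars and error bars are mean ± SD (n = 3), and each panel has a linear axis of its own. SLC16A6 is highest with the CD146 shRNA, at a mean of 163 FPKM, and FAM20A is highest with pLVX, at a mean of 2.99 FPKM.

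Per length of transcript, the order of the 4 groups differed between the genes. SLC16A6 averaged 163 ± 3.69 FPKM with the CD146 shRNA, 35.5 ± 2.22 with the control shRNA, 1.65 ± 0.0872 with CD146 overexpression and 3.69 ± 0.202 with pLVX (SD, n = 3), and no 2 groups next to each other in that order of level overlapped. ARSG averaged 3.9 ± 0.186 FPKM with the CD146 shRNA, 2.28 ± 0.0346 with the control shRNA, 1.51 ± 0.148 with CD146 overexpression and 2.22 ± 0.21 with pLVX. The control shRNA and pLVX libraries of ARSG overlapped.

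WIPI1 averaged 5.47 ± 0.312 FPKM with the CD146 shRNA, 2.98 ± 0.316 with the control shRNA, 4.86 ± 0.486 with CD146 overexpression and 6.59 ± 0.67 with pLVX. Its CD146 shRNA and CD146 overexpression libraries overlapped. PRKAR1A averaged 14.5 ± 1.06 FPKM with the CD146 shRNA, 13.5 ± 0.37 with the control shRNA, 17.4 ± 0.605 with CD146 overexpression and 28.1 ± 1.26 with pLVX, on the authors' longer gene model. FAM20A averaged 0.07 ± 0.01 FPKM with the CD146 shRNA, 0.08 ± 0.0265 with the control shRNA, 0.527 ± 0.0208 with CD146 overexpression and 2.99 ± 0.121 with pLVX. Its order in HepG2 was clear, and in the libraries labelled Hep3B both groups overlapped near 0.

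Between the control groups, in FPKM, SLC16A6 was 9.62 times higher with the control shRNA than with pLVX. FAM20A was 37.4 times, WIPI1 2.21 times and PRKAR1A 2.09 times higher with pLVX than with the control shRNA. The ratio of pLVX to control shRNA was 0.975 for ARSG. SLC16A6 and the genes to its right thus differed between the lines in opposite directions.

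Over all 12 libraries, WIPI1 and PRKAR1A had the most alike profiles among the members. The measure is the root mean square difference of log2 CPM after centring each gene, over 12 libraries and 12742 protein-coding genes of at least 1 CPM on average, and 12 libraries of 2 unlike lines make it mostly a comparison between lines. It was 0.33 for WIPI1 with PRKAR1A, 0.61 for ARSG with WIPI1, 0.74 for ARSG with PRKAR1A, 2.19 for ARSG with SLC16A6 and 4.53 for FAM20A with SLC16A6. Of the genes compared, 2.46% were closer to WIPI1 than PRKAR1A was, and 8.35% were closer to PRKAR1A than WIPI1 was. For ARSG and WIPI1, 45.9% were closer to ARSG than WIPI1 was, and 38.1% were closer to WIPI1 than ARSG was. ARSG and WIPI1 are the pair with the most exon bases in common.

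For each member, the nearest profile lay elsewhere in the genome. WIPI1 had ACSS2, an acetyl-CoA synthetase (0.11), and CLU, the gene of clusterin (0.12), among its nearest. ARSG was nearest to LSS, lanosterol synthase (0.17), CYB5B, a mitochondrial cytochrome b5 (0.17), and CREB3L2, a membrane-bound transcription factor (0.18). PRKAR1A was nearest to SLC2A1, the glucose transporter GLUT1 (0.13), DDAH2 (0.14) and FDFT1, squalene synthase (0.15). The nearest profiles of SLC16A6 were CRISPLD2 (0.44), KRT12 (0.45) and GPR20 (0.48), and those of FAM20A were COLGALT2 (0.70), HAL (0.71) and ANGPTL1 (0.71), so these 2 members had no near match.

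Genes around the interval were counted in the same fits. Of 61 other genes that start within 1 Mb of it or inside it, 21 were tested after knockdown, of which 4 rose, 8 fell and 9 did not pass, with a median log2 difference of −0.16 against 0.001 over all genes. Over all genes tested, 26.8% were called higher and 28.5% lower. All 7 protein-coding genes tested on the left side, beside ARSG, fell in edgeR (−0.78 to −0.16), where 28.5% of all genes were called lower and ARSG itself rose. In DESeq2 and in limma on FPKM 6 of the 7 fell, AMZ2 not among them. The closest of them, AMZ2, a metalloprotease gene 11.6 kb away, was at 44.9 ± 4.2 CPM with the CD146 shRNA and 50.3 ± 2.51 CPM with the control shRNA, with overlapping groups (−0.16, SE 0.06; edgeR adjusted p = 0.0244). The antisense gene AC005332.1, 11.2 kb away and the nearest tested on that side, was at 0.79 ± 0.13 CPM with the CD146 shRNA and 0.421 ± 0.12 CPM with the control shRNA and did not pass (0.88, SE 0.40; edgeR adjusted p = 0.0612). Of the left-side genes tested that are not annotated as protein-coding, only AC134407.3 was called, as lower (−0.84, SE 0.29; edgeR adjusted p = 0.0143). The rest went both ways, from −0.35 to 0.88.

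On the right side, beside FAM20A, the nearest tested gene after knockdown was ABCA8, a lipid transporter of the ABCA family, 354 kb away. It was at 8.78 ± 0.278 CPM with the CD146 shRNA, against 3.95 ± 0.289 CPM with the control shRNA (1.16, SE 0.14; edgeR adjusted p = 2.8e-09). ABCA5, of the same family, rose by 0.73 (SE 0.08; edgeR adjusted p = 1.1e-10), and the other 2 protein-coding genes tested there did not pass. The pseudogene SNRPGP4 was at 0.809 ± 0.178 CPM with the CD146 shRNA and 0.241 ± 0.172 CPM with the control shRNA, and it passed the low-count filter through the CD146 shRNA group alone. SNRPGP4 and MIR635 are among the 4 genes counted as risen.

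In HepG2, 19 of the 61 surrounding genes were tested, of which 0 rose, 5 fell and 14 did not pass, with a median of −0.06 against 0.002 over all genes (edgeR; 2 rose at an unadjusted p under 0.05, and 0 in DESeq2 or limma). Over all genes tested, 9.55% were called higher and 10.3% lower. AMZ2 was at 60.0 ± 5.5 CPM with CD146 overexpression and 66.9 ± 4.02 CPM with pLVX, with overlapping groups (−0.16, SE 0.05; edgeR adjusted p = 0.0294). ABCA9, the nearest tested gene on the right, was at 1.51 ± 0.104 CPM with CD146 overexpression and 1.54 ± 0.36 CPM with pLVX (−0.04, SE 0.28; edgeR adjusted p = 0.946). Apart from LINC01482, the genes that fell differed by −0.41 to −0.12. The count of 5 dropped to 2 without CD146 overexpression replicate 1 or replicate 3, to 3 without pLVX replicate 1 or replicate 2, to 2 of 42 in DESeq2 and to 1 of 30 in limma on FPKM. In the plot of fold change by distance, the lowest log2 differences in HepG2 lay inside the interval. The members are taken as chosen on these values, and LINC01482 passed the low-count filter through the pLVX group alone. Their place in the plot therefore supports nothing by itself.

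**Figure D3:**
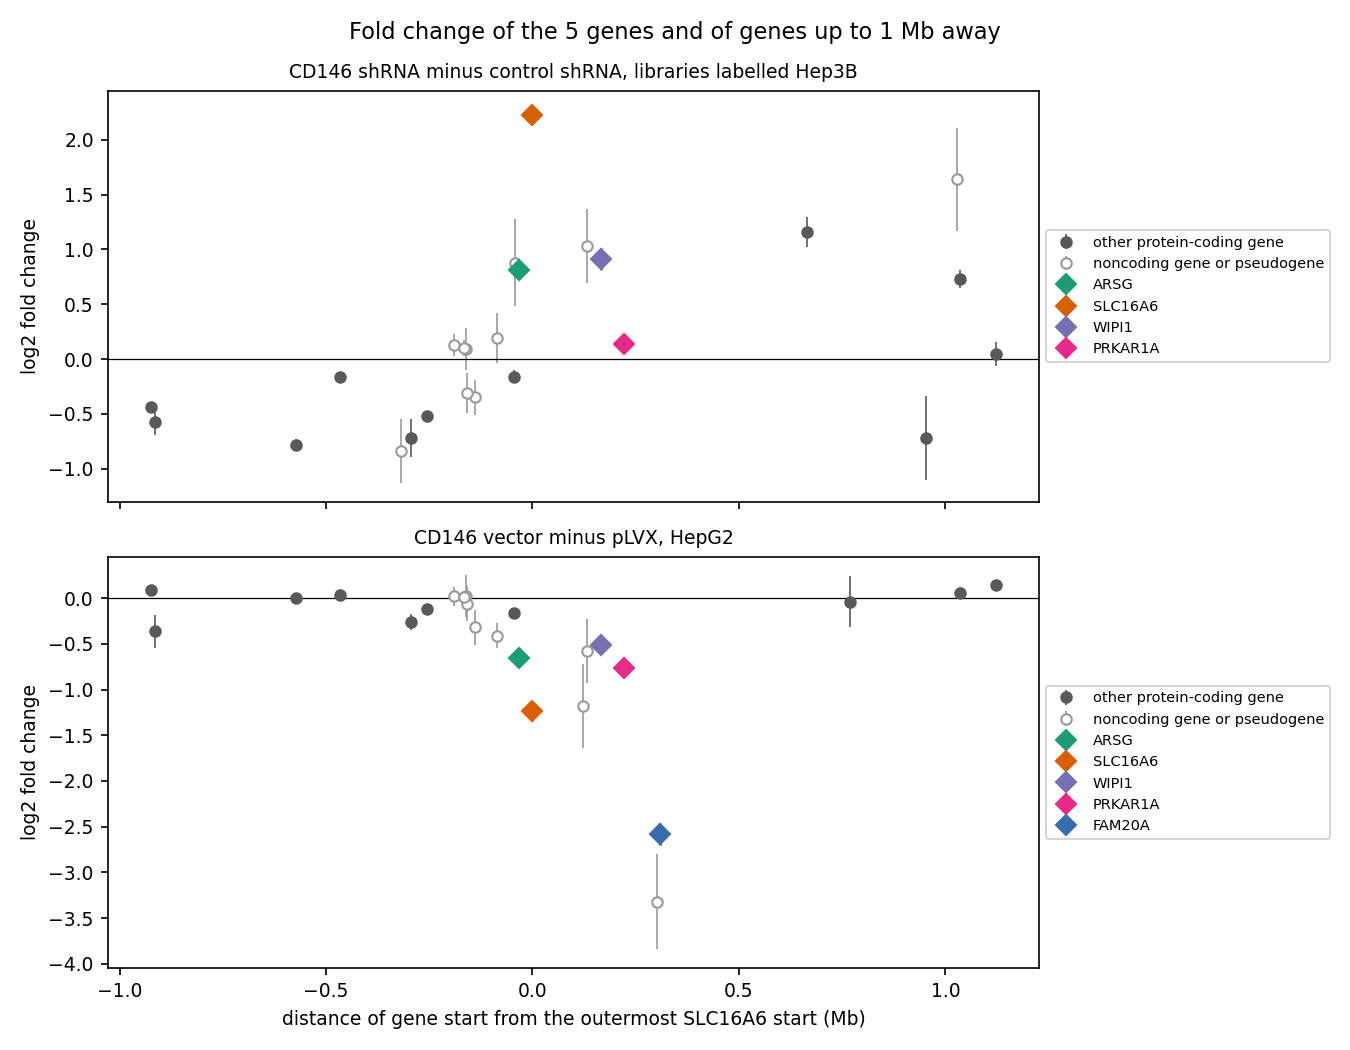
Log2 fold change with its standard error of the 5 genes (diamonds) and of other tested genes (circles, filled for protein-coding), against the distance of each gene start from the outermost SLC16A6 start in Mb. After knockdown (top, CD146 shRNA minus control shRNA) SLC16A6 stands at 2.23 and the 7 protein-coding genes left of the interval lie below 0, and in HepG2 (bottom, CD146 vector minus pLVX) FAM20A stands at −2.58 with LINC01482 at −3.32.

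The genes that act with each member, in lists chosen with earlier results known, gave mixed counts. They are read against the shares over all genes, which were 26.8% called higher and 28.5% lower after knockdown and 9.55% higher and 10.3% lower in HepG2. Of 9 tested genes of the monocarboxylate transporters and their chaperones other than SLC16A6, 6 rose and 2 fell after knockdown, with a median of 0.25, and 0 rose and 2 fell of 7 in HepG2 (edgeR; 0 rose at an unadjusted p under 0.05, in DESeq2 or in limma). SLC16A12, 1 of the 6, was at 0.0722 to 0.178 CPM with the control shRNA and 0.772 to 0.868 CPM with the CD146 shRNA. It passed the low-count filter through the CD146 shRNA group alone. In limma on FPKM, 4 genes of the list rose after knockdown. BSG, basigin, the chaperone that brings several of these transporters to the membrane, was at 1190 ± 68.5 CPM with the CD146 shRNA against 664 ± 13.9 CPM with the control shRNA (0.84, SE 0.04; edgeR adjusted p = 9.8e-20). In HepG2 it was at 297 ± 2.96 CPM with CD146 overexpression against 344 ± 11.7 CPM with pLVX (−0.21, SE 0.03; edgeR adjusted p = 1.8e-06). BSG had the directions of SLC16A6 in both lines.

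Other transporters of the family moved either way after knockdown. SLC16A13 rose by 0.76 (SE 0.13; edgeR adjusted p = 5.6e-06), while SLC16A4 fell to 8.88 ± 0.677 CPM with the CD146 shRNA, against 17.9 ± 0.4 CPM with the control shRNA (−1.02, edgeR adjusted p = 1.3e-11), and SLC16A9 fell by 0.21 with overlapping groups (edgeR adjusted p = 0.0404). In HepG2, SLC16A1, the main lactate transporter, fell by 0.19 (SE 0.03; edgeR adjusted p = 1.2e-05). The ketone body list split evenly after knockdown, with 5 risen and 5 fallen of 11 tested, and 0 rose and 3 fell of 12 in HepG2 (edgeR; 1 rose at an unadjusted p under 0.05, and 0 in DESeq2 or limma).

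In that list PPARA, the fatty acid receptor that drives ketogenesis, rose by 0.58 after knockdown (SE 0.07; edgeR adjusted p = 1.1e-08) and HADHB, of mitochondrial fatty acid oxidation, by 0.21 (SE 0.05; edgeR adjusted p = 1.1e-04). OXCT1, the enzyme that uses ketone bodies, fell to 107 ± 3.72 CPM with the CD146 shRNA, against 217 ± 4.77 CPM with the control shRNA (−1.02, edgeR adjusted p = 4.3e-22), and CPT2, of fatty acid import, fell by 0.91 (edgeR adjusted p = 7.6e-12). HADHA (−0.26, edgeR adjusted p = 1.6e-08) and ACADM (−0.19, edgeR adjusted p = 9.5e-04), both of fatty acid oxidation, fell in HepG2.

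Of 5 other protein kinase A subunits and inhibitors tested in HepG2, where PRKAR1A differed by −0.76, 0 rose and 0 fell in edgeR, DESeq2 or limma (0 rose and 2 fell at an unadjusted p under 0.05), with log2 differences of −0.14 to 0.13. After knockdown 1 rose and 3 fell of 5. PRKACA, a catalytic subunit, rose by 0.15 with overlapping groups (edgeR adjusted p = 0.0314). PRKACB, another catalytic subunit, fell by 0.59 (SE 0.07; edgeR adjusted p = 3.9e-09) and PRKAR2A, a regulatory subunit of the other type, by 0.36 (SE 0.05; edgeR adjusted p = 1.1e-08).

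Of 24 tested genes of autophagosome formation other than WIPI1, 8 rose and 4 fell after knockdown, with a median of 0.05, and 6 rose and 0 fell in HepG2 (edgeR; 2 fell at an unadjusted p under 0.05, and 0 in DESeq2 or limma), with a median of 0.04. In DESeq2 the counts of genes risen were 4 after knockdown and 2 in HepG2. Over all genes, 26.8% were called higher after knockdown and 9.55% in HepG2. The HepG2 rises ran opposite to the lower WIPI1. SQSTM1, the cargo receptor p62, was at 150 ± 3.66 CPM with CD146 overexpression against 116 ± 2.85 CPM with pLVX (0.37, SE 0.04; edgeR adjusted p = 6.6e-11), and MAP1LC3B, of the phagophore membrane, rose by 0.25 (SE 0.05; edgeR adjusted p = 3.1e-05). After knockdown GABARAPL1, of the same protein family, rose by 0.61 (edgeR adjusted p = 2.4e-14) and ATG2A, a lipid transfer protein, by 0.94 (edgeR adjusted p = 8.8e-13). ATG3 fell by 0.39 (edgeR adjusted p = 9.3e-08) and ATG12 by 0.26 (edgeR adjusted p = 8.7e-05), both of the conjugation machinery.

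Of 14 tested sulfatases and their activators other than ARSG, 6 rose and 3 fell after knockdown, and 2 rose and 2 fell in HepG2. STS, steroid sulfatase, was at 98.5 ± 4.02 CPM with the CD146 shRNA against 31.2 ± 2.0 CPM with the control shRNA (1.66, SE 0.06; edgeR adjusted p = 2.4e-25), and GALNS, a lysosomal sulfatase, rose by 0.86 (edgeR adjusted p = 1.7e-11). SULF2, an extracellular heparan sulfatase, fell by 0.50 after knockdown (edgeR adjusted p = 2.5e-08), and in HepG2 it was at 71.4 ± 2.53 CPM with CD146 overexpression against 50.6 ± 0.243 CPM with pLVX (0.50, edgeR adjusted p = 1.2e-11). ARSL fell in both, by 0.30 (edgeR adjusted p = 0.002) after knockdown and by 0.19 (edgeR adjusted p = 0.00562) in HepG2. ARSB fell by 0.40 (edgeR adjusted p = 1.0e-11) and ARSI rose by 0.57 (edgeR adjusted p = 0.00395) in HepG2.

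Of the secretory pathway kinases other than FAM20A, 2 rose and 5 fell of 8 tested after knockdown, and 0 rose and 3 fell of 7 in HepG2 (edgeR; 1 rose at an unadjusted p under 0.05, 0 in DESeq2 and 1 in limma). FAM20B, a xylose kinase of the same family, was at 89.0 ± 2.88 CPM with the CD146 shRNA against 132 ± 3.86 CPM with the control shRNA (−0.57, SE 0.05; edgeR adjusted p = 1.2e-13), and DIPK2A fell by 0.71 (edgeR adjusted p = 1.6e-09). FJX1 rose by 0.29 (edgeR adjusted p = 4.5e-04) and DIPK1B by 0.52 (edgeR adjusted p = 0.0491). In HepG2, PKDCC fell by 0.31 (edgeR adjusted p = 1.5e-06) and POMK, the protein O-mannose kinase, by 0.24 (edgeR adjusted p = 2.0e-04), where FAM20A differed by −2.58.

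Liver transcripts also differed in HepG2 in the libraries where the 5 genes were lower. Of 12 hepatocyte markers, 1 rose, 6 fell and 5 did not pass, where 9.55% of all genes tested were called higher and 10.3% lower. ALB was at 15100 ± 239 CPM with CD146 overexpression against 22000 ± 543 CPM with pLVX (−0.54, SE 0.03; edgeR adjusted p = 2.2e-23), AFP, the fetal serum protein, fell by 0.53 (edgeR adjusted p = 1.9e-22), and HNF4A, a liver transcription factor, rose by 0.12 (edgeR adjusted p = 0.00654). Markers of other cell types summed to 8.07 to 14.2 CPM with CD146 overexpression and 7.9 to 10.2 CPM with pLVX, and 0 of 4 tested were called (edgeR; 1 at an unadjusted p under 0.05, and 0 in DESeq2 or limma). The part of the liver transcripts in the members' differences was not tested.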

How the data were processed

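Poly(A) RNA-seq of 12 libraries was used. The authors deposited a table of unnormalised counts for each Ensembl gene and a table of FPKM for the same genes. HTSeq 0.6.1, HISAT2 2.2.1 and cutadapt 1.9.1 appear in the submitters' processing notes, while no source used here gives the build, annotation or strand setting. Of 61806 IDs, 58371 had a symbol and 58254 a position in GENCODE version 29 (GRCh38).

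Groups came from the treatment labels. Each line had its own edgeR 4.0.16 quasi-likelihood fit under R 4.3.3 (filterByExpr, TMM, 2-sided, Benjamini-Hochberg over all genes tested, threshold 0.05), and the fit was checked on simulated counts. The simulation gave all genes the same dispersion and changed only well-counted genes by a large known fold. It does not cover low-count genes or small changes. Alternatives were DESeq2 1.42.0, limma 3.58.1 on log2(FPKM + 0.1), other scalings, no filter, a replicate block and leaving out libraries. No library was a copy of another, with a chi-square per gene of 1.74 to 3.93 between replicates. Named genes were the members, MCAM, liver markers, the nearest tested flanking genes and flanking genes called with a log2 change of at least 1, up to 2 called genes per list, direction and comparison with the smallest adjusted p, and the 3 nearest profiles per member; some genes examined are not reported here. ABCA5 and, for the knockdown, AMZ2 were named after their values were seen. The members and lists were chosen with earlier results of these data known.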

Additional observations from a re-analysis of the deposited data

Results flagged for a closer look

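Among the members, MCAM, the genes of the lists and the surrounding genes, of at least 1 CPM in the higher group of both lines, 15 were found for which the libraries of 1 line all moved one way against their controls and those of the other line all moved the opposite way. These differences were not tested, and line and method of perturbation cannot be told apart in them. Of all genes tested in both lines, 4.67% were above all controls after knockdown and below all pLVX libraries after overexpression. The opposite pattern was not counted over all genes, so the 15 cannot be set against a full share. Each value is the log2 difference in HepG2 (CD146 overexpression minus pLVX) less the log2 difference in the libraries labelled Hep3B (CD146 shRNA minus control shRNA). Among the members it was −3.47 for SLC16A6, −1.47 for ARSG, −1.42 for WIPI1 and −0.90 for PRKAR1A, whose groups after knockdown were only 0.104 CPM apart. FAM20A was not tested after knockdown and has no such value. Among the genes of the related lists it was −1.05 for BSG, −0.83 for PKDCC, −0.44 for SLC16A1, −0.36 for HADHA, −0.28 for HADHB, 0.71 for PRKACB and 1.00 for SULF2. It was also 0.66 for FAM20C, the kinase that FAM20A activates, and 0.36 for WDR45, a relative of WIPI1. Of the surrounding genes, PSMD12 had 0.53. MCAM, the gene perturbed, had 8.61. A call was not required in either line. In HepG2, PRKACB (edgeR adjusted p = 0.451), HADHB (edgeR adjusted p = 0.186), PSMD12 (edgeR adjusted p = 0.139) and FAM20C (edgeR adjusted p = 0.134) did not pass. After knockdown, WDR45 (edgeR adjusted p = 0.181) and PKDCC (edgeR adjusted p = 0.0809) did not pass.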

How the results depend on the processing

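The directions of the tested members were the same in both comparisons under all alternatives run, and SLC16A6, ARSG and WIPI1 passed the threshold after knockdown in each. PRKAR1A after knockdown did not pass in limma on log2(FPKM + 0.1) (0.11), and its value was 0.11 to 0.20 when 1 library was left out. In limma on FPKM, SLC16A6 in HepG2 was −1.11 and FAM20A −2.30. Leaving out 1 library gave −1.26 to −1.19 for SLC16A6 and −2.61 to −2.55 for FAM20A in HepG2. All genes called were 9385 after knockdown (8645 to 8894 without 1 library) and 3037 in HepG2 (2262 to 2675 without 1 library, 1642 with DESeq2, 1299 with limma on FPKM). Surrounding genes called were 12 of 21 after knockdown, or 7 of 14 within 0.5 Mb. In HepG2 they were 5 of 19, with 2 under DESeq2, 1 under limma on FPKM and 2 to 4 without 1 library. The main fit used no pairing by replicate number. Deviations of same-numbered libraries correlated at 0.105, 0.0501 and 0.0357 after knockdown and at −0.0441, −0.0461 and 0.0177 in HepG2. Those of differently numbered libraries correlated at −0.103 to 0.0612 after knockdown and at −0.05 to 0.0876 in HepG2. In DESeq2 against edgeR, genes risen after knockdown numbered 4 against 8 in the autophagosome list, 3 against 5 in the ketone body list, 1 against 2 among secretory pathway kinases, 0 against 1 in the protein kinase A list and 2 against 4 among surrounding genes, surrounding genes fallen 6 against 8, monocarboxylate transporter genes fallen 1 against 2, and in HepG2 genes risen 2 against 6 in the autophagosome list and 1 against 2 among sulfatases. In limma on FPKM, genes risen after knockdown were 3, 2, 1 and 0 in the first 4 of these lists and monocarboxylate transporter genes fallen 1, and in HepG2 the autophagosome list had 3 genes risen and the monocarboxylate transporter, ketone body, sulfatase and secretory kinase lists 1 gene fallen each, against 2, 3, 2 and 3 in edgeR. With the replicate block, 9543 genes were called after knockdown and 2947 in HepG2. The counts of FAM20A in the libraries labelled Hep3B, 6 to 11, limit what can be seen there, and the unknown strand setting limits ARSG and WIPI1.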
